A study of Rattus norvegicus with 33 samples.

Results

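The Wnt ligands, their receptors and their secreted modulators were followed through the development of the rat mammary gland. Members were all genes whose symbol is Wnt, Fzd, Sfrp, Dkk or Rspo followed by a digit, together with Lrp5, Lrp6, Lgr4, Lgr5, Lgr6, Ror1, Ror2 and Wif1. There were 48 such genes among the 18166 genes with an unambiguous symbol on the array. They comprised 19 Wnt ligands, 4 R-spondins, 3 Lgr receptors, 13 Frizzled, Lrp and Ror receptors, and 9 secreted inhibitors of the Sfrp, Dkk and Wif families. Each of the 48 had 1 single-symbol probe set, the group of array probes that reports a transcript.

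The arrays, 33 in all, measured gland RNA of female Sprague-Dawley rats, an outbred stock. Every animal had received olive oil by gavage as the vehicle control of a chemical exposure study, and the caudal glands of the fifth pair were sampled without regard to the oestrous cycle. The stages were pre-pubertal at postnatal day 21 (n = 10, still with the dam, since weaning was at day 28), peri-pubertal at day 42 (n = 5), pubertal at day 63 (n = 5), lactating on lactation day 28 at day 146 (n = 3), and parous and nulliparous adults at day 181 (n = 5 each), the parous rats 35 days after the lactation sampling. Each array was taken as 1 animal, although the sample notes give 5 animals per stage where the record gives 10 pre-pubertal animals. If those 10 came from fewer animals, their p-values are too small. Each stage was collected at one age from whole glands, so a change can come from epithelium, stroma, fat or immune cells alike, and in such bulk RNA fewer cells of a type and less RNA per cell cannot be told apart.

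The labels give 3 batches, and batch 3 was extracted with the Zymo kit, used for fattier adult glands, where the others had the Promega kit. Batch 1 holds 6, 3, 3, 3 and 3 arrays of the pre-pubertal, peri-pubertal, pubertal, parous and nulliparous stages. Batch 2 holds 4, 2 and 2 arrays of the pre-pubertal, peri-pubertal and pubertal stages and all 3 of lactation. Batch 3 holds 2 parous and 2 nulliparous arrays. Below, values are log2 RMA units, a difference is followed by ± its SE, and within a stage batch 1 arrays are listed first, then batch 2 or batch 3 arrays.

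Wnt proteins are secreted, lipid-modified signals that bind Frizzled receptors. With the co-receptors Lrp5 and Lrp6 they stabilise β-catenin, while with Ror1 and Ror2 they act on cell shape and movement without it. R-spondins bind the Lgr receptors and keep Frizzleds at the cell surface, whereas Sfrp and Wif1 proteins bind Wnts and Dkk1, Dkk2 and Dkk4 bind Lrp5 and Lrp6. In mouse mammary gland, Wnt4 is made by hormone-sensing luminal cells under progesterone and acts with Rspo1 on basal cells, and Wnt5a restrains branching.

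The 48 genes included 20 (41.7%) whose mean over the arrays lay above 7.645, the median of all single-symbol values, against 51.2% of all genes. By role, 3 of 19 ligands, 2 of 4 R-spondins, 1 of 3 Lgr receptors, 9 of 13 receptors and 5 of 9 secreted inhibitors were above it. Sfrp5 at 7.64 lay just below the median and Dkk2 at 7.66 and Fzd1 at 7.71 just above. Over single arrays, 9 members exceeded the median in all 33 arrays and 19 in 0 arrays. The table has no detection calls and probe sets differ in brightness, so these levels show neither absence nor the order of abundance between genes. The plot of member levels shows how far the stage means of each gene spread around its overall mean.

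**Figure D1:**
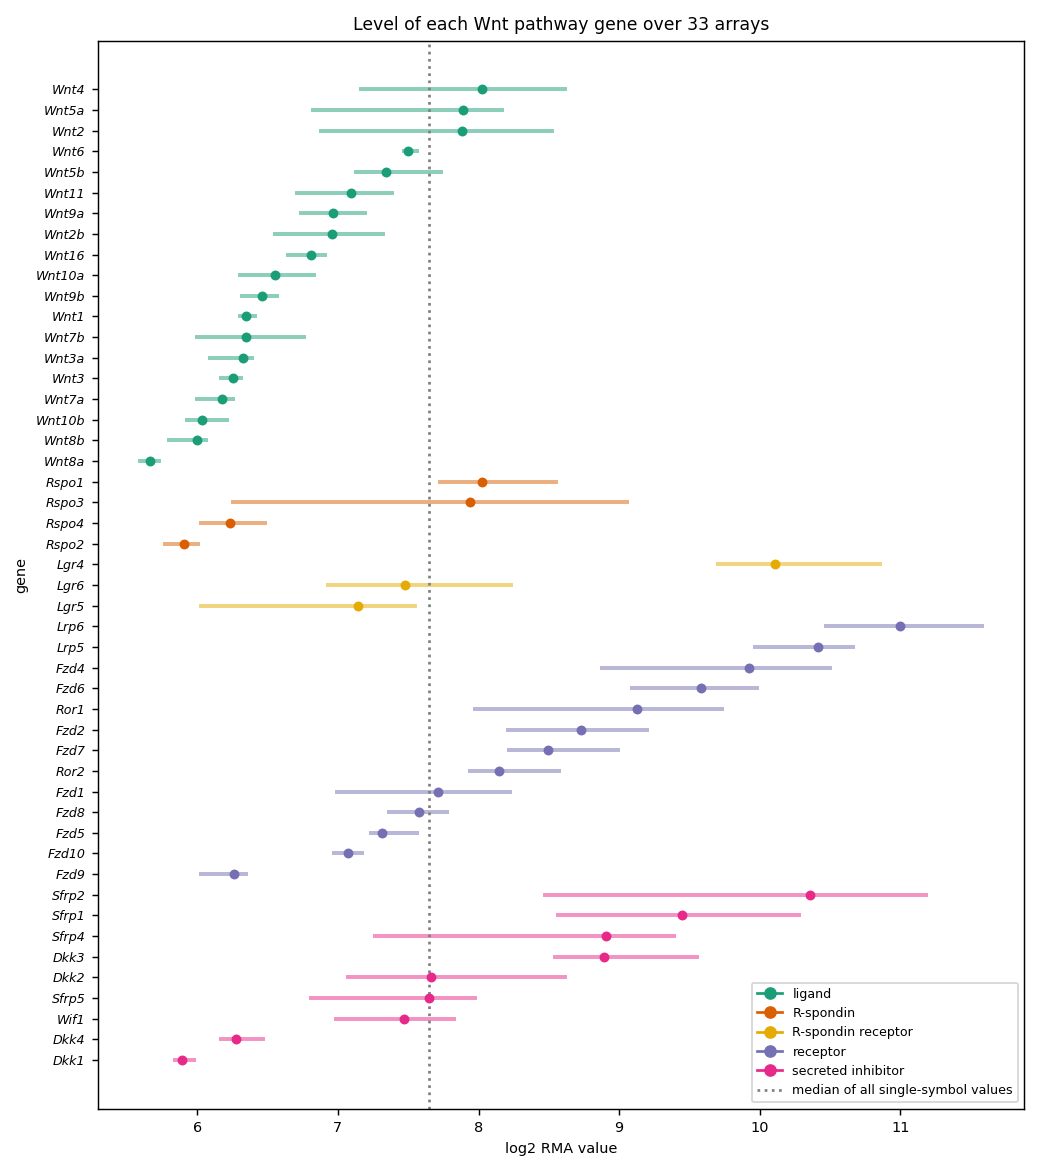
Level of each of the 48 genes: points are means over 33 arrays in log2 RMA units, bars run from the lowest to the highest of the 6 stage means, and colours give the role. The dotted line is the median of all single-symbol values, 7.645, and 20 of the 48 points lie above it; 3 of the 19 ligands (Wnt4, Wnt5a and Wnt2) do.

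Each gene was fitted by stage (6 stages) and batch (3 batches) over all arrays. A gene was called at a Benjamini-Hochberg adjusted p under 0.05 over all 18166 genes. "Rose" and "fell" refer to called genes. In a moderated F test of any difference between stages, 27 of 48 members passed (56.2%), beside 46.3% of all genes. They were 7 of 19 ligands, 3 of 4 R-spondins, 3 of 3 Lgr receptors, 8 of 13 receptors and 6 of 9 secreted inhibitors.

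Peri-pubertal glands differed widely from pre-pubertal ones. Of the 48 genes, 16 rose and 4 fell, where 11% of all genes rose and 9.52% fell, and 20.5% were called in either direction. The median member difference was 0.08, against 0.01 over all genes. Arrays of the 2 stages did not overlap for 3 members that were higher at day 42 (Sfrp1, Sfrp2 and Wnt2; 2.2% of all genes) and for 1 that was lower (Fzd4; 1.24% of all genes). Each of the 20 differences had the same sign within batch 1 and within batch 2. The fit that picked these 20 combines the same 2 batches, so shared signs are partly built in and are not separate evidence. Luminal epithelial genes moved with the members: 14 of 14 listed genes rose, and the list mean per array ran from 9.42 to 10.13 at day 42 against 6.59 to 9.61 at day 21. Basal and myoepithelial genes rose in 5 of 7 cases, with list means from 9.46 to 9.87 at day 42 against 7.82 to 9.36 at day 21. Adipocyte genes fell in 10 of 10 cases, with list means from 10.53 to 10.997 at day 42 against 11.12 to 11.88 at day 21. Of 8 B cell and 9 T cell genes, 8 and 8 fell. With the mean of the luminal list added to the fit, 0 of the 48 were called by limma, where 1.52% of all genes were. Of the day 21 arrays only replicate 8, at 9.61, reached the day 42 range of that list, and the next highest read 8.91. That fit can thus hardly tell list from stage, and the loss of calls does not measure the part of luminal cells. The differences themselves moved unequally in that fit. Fzd4 was at -0.69, Sfrp2 at 0.80, Wnt2 at 0.69 and Rspo3 at 1.72, against -0.70, 0.89, 0.85 and 1.32 without the list, whereas Ror1 was at 0.09 and Wnt7b at 0.08, against 0.66 and 0.50.

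Pubertal and peri-pubertal glands gave 0 calls among the members in limma's moderated test, against 0.6% of all genes, and 6 members at an unadjusted p under 0.05, 3 higher and 3 lower at day 63. Nulliparous adults gave 0 calls against pubertal glands, where 2.26% of all genes were called, and 5 members at an unadjusted p under 0.05, 4 higher and 1 lower. Parous and nulliparous glands gave 0 calls too, where 0.022% of all genes were called. There, 8 members had an unadjusted p under 0.05 in the limma fit, 1 higher and 7 lower in parous glands. Of 48 differences 40 were negative, against 9849 of 18166 over all genes, with a median of -0.14 against -0.01. The share of all genes at an unadjusted p under 0.05 is not given here, so the unadjusted counts of these comparisons have no background beside them.

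Lactating glands showed mostly lower members. They were also older than pubertal glands, day 146 against day 63, and had passed through pregnancy. Age, pregnancy and lactation cannot be told apart in this comparison. Against pubertal glands, 14 fell and 1 rose, where 12.8% of all genes fell and 16.2% rose (29% in all). The median member difference was -0.19, against 0.01 over all genes. All lactating arrays lay below all pubertal arrays for 17 members and above them for 0, where 13.9% and 14.3% of all genes did so. Each of the 15 called members had the same sign within batch 2, which holds 3 lactating and 2 pubertal arrays. As the fit that picked them used these arrays, the shared sign is partly built in too. Of 8 milk protein genes, 5 rose and 3 were not called. Fibroblast genes fell alongside (9 of 10), with list means from 10.03 to 10.43 in lactating and from 11.92 to 12.14 in pubertal arrays. Adipocyte genes fell as well (9 of 10), with list means from 9.43 to 9.63 in lactating against 10.46 to 10.75 in pubertal arrays, while 7 of 14 luminal genes rose. With the fibroblast list mean as a covariate, an alternative chosen after seeing the data, 2 members were called, where 6.69% of all genes were. These were Wnt2 at 1.72 and Lgr4 at 1.34, both higher in lactation. In that fit the lactation difference turned positive for 5 members that fell without it, Wnt2, Sfrp4, Fzd2, Fzd7 and Ror2. Of these, Sfrp4, Fzd2, Fzd7 and Ror2 had an adjusted p of 0.0793 to 0.926 and were not called. The list means of lactating and pubertal arrays do not overlap, so that fit cannot tell list from stage between them.

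Parous glands had higher members than lactating glands. Here 9 members rose and 1 fell, where 8.24% of all genes rose and 13.4% fell. In all, 20.8% of the members were called, a share near the 21.6% of all genes. All parous arrays lay above all lactating arrays for 11 members and below them for 3, where 10.5% and 11.2% of all genes did so. These stages share no batch, so their difference rests on batch terms estimated from the other stages, and no value within a batch exists. Fibroblast genes rose alongside (8 of 10), with list means from 10.38 to 11.59 in parous arrays against 10.03 to 10.43 in lactating ones. Adipocyte genes rose in 5 of 10 cases and B cell genes in 3 of 8, while 8 of 14 luminal and 3 of 8 milk protein genes fell. The parts of these cell types in the member differences were not tested. Fits with the fibroblast, B cell or luminal list mean as a covariate were run, but they do not measure those parts. A fit of the parous and lactating stages alone called 5 members and 5.1% of all genes. As both comparisons use the same 3 lactating arrays, they are not independent, and values are given side by side below.

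**Figure D2:**
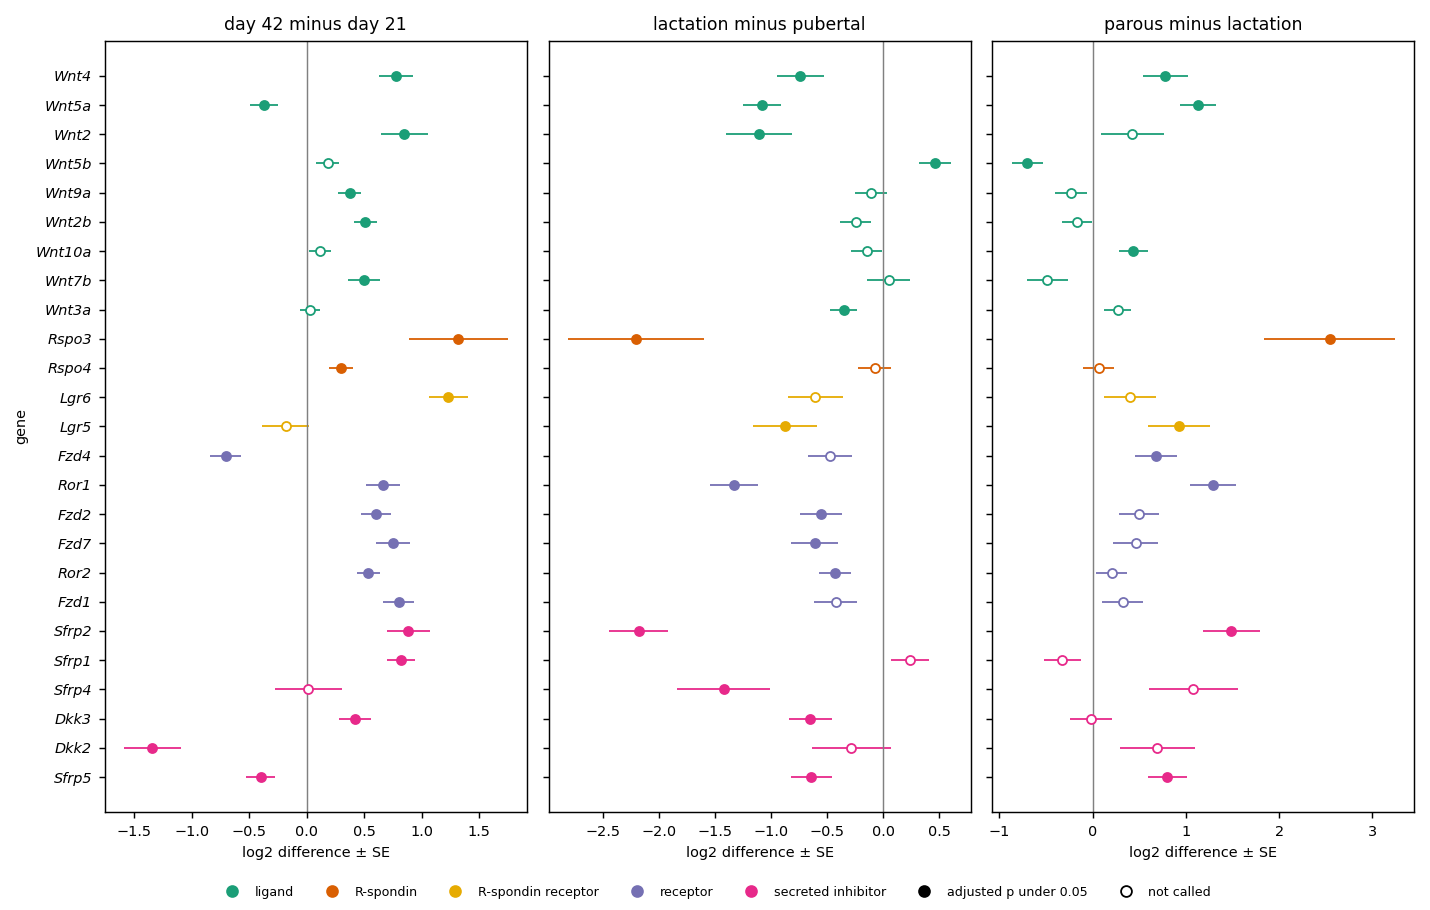
Log2 differences with their SE for the members called in at least 1 of 3 comparisons: day 42 minus day 21, lactation minus pubertal, and parous minus lactation. Filled points passed an adjusted p under 0.05: 16 up and 4 down, 1 up and 14 down, and 9 up and 1 down across the 3 panels.

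Among the ligands, Wnt4, the progesterone-responsive Wnt of mouse luminal cells, read 7.13 (lowest), 7.43 (median) and 8.36 (highest) at day 21. Its day 42 values were 8.49, 8.80, 8.44, 7.92 and 8.02, and its day 63 values 8.20, 8.46, 8.07, 8.01 and 7.90. It read 7.51, 7.30 and 6.69 in lactating glands, 8.32, 8.47, 8.20, 8.85 and 9.26 in parous glands and 8.31, 8.15, 8.03, 9.02 and 8.87 in nulliparous glands. Lactating arrays lay below all pubertal and all parous arrays, and the highest pre-pubertal arrays overlapped the day 42 range. The highest of them, replicate 8, also had the highest luminal list mean of its stage, 9.61. Wnt4 rose at day 42 by 0.78 ± 0.15 (adjusted p = 0.000301), fell in lactation against pubertal glands (-0.74 ± 0.21, adjusted p = 0.00877), and was higher in parous than lactating glands by 0.78 ± 0.24 (adjusted p = 0.0212). With the luminal list as a covariate the day 42 difference was 0.21 (adjusted p = 0.791). Without lactation replicate 3 the differences were -0.50 for lactation against pubertal (adjusted p = 0.0964) and 0.54 for parous against lactation (adjusted p = 0.131).

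Wnt2, a ligand of lung and liver development in mouse, had day 21 values of 6.90 (lowest), 7.69 (median) and 8.15 (highest). At day 42 it had 8.24, 9.28, 8.40, 8.47 and 8.24, and at day 63 it had 8.53, 8.25, 8.38, 7.999 and 7.61. It read 6.97, 6.67 and 6.99 in lactation, 7.32, 8.11, 7.39, 7.74 and 7.91 in parous and 7.82, 8.65, 7.64, 7.90 and 8.87 in nulliparous glands. No day 42 array overlapped a day 21 array, and the lactating arrays lay below every pubertal, parous and nulliparous array. Wnt2 rose at day 42 by 0.85 ± 0.21 (adjusted p = 0.00325) and fell in lactation (-1.11 ± 0.29, adjusted p = 0.00492, but 1.72 with the fibroblast list as a covariate), while parous minus lactation was 0.43 ± 0.34 (adjusted p = 0.405).

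Wnt5a, a ligand that signals largely through Ror receptors, had day 21 values of 7.89 (lowest), 8.16 (median) and 8.60 (highest). It read 7.88, 7.60, 7.94, 7.67 and 7.90 at day 42 and 8.46, 7.94, 7.95, 7.71 and 7.94 at day 63. Its values were 6.90, 7.03 and 6.53 in lactation, 8.15, 8.03, 8.06, 7.28 and 7.57 in parous and 8.60, 8.55, 7.87, 7.50 and 7.53 in nulliparous glands. The lactating arrays were below all arrays of every other stage, and batch 3 arrays lay below batch 1 arrays in both adult stages. Wnt5a fell at day 42 (-0.37 ± 0.12, adjusted p = 0.0238), fell in lactation (-1.08 ± 0.17, adjusted p = 1.44e-05) and rose in parous against lactating glands by 1.13 ± 0.19 (adjusted p = 9.54e-05). The day 42 call was lost without peri-pubertal replicate 2 (-0.30, adjusted p = 0.101) or 4 (-0.36, adjusted p = 0.0550).

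Wnt5b, its close paralogue, moved the other way in lactation. Its day 21 values were 6.86 (lowest), 7.12 (median) and 7.35 (highest), with 7.30, 7.48, 7.41, 7.26 and 7.09 at day 42 and 7.28, 7.24, 7.55, 7.28 and 7.40 at day 63. Lactating arrays read 7.31, 8.24 and 7.66, parous arrays 7.26, 7.24, 7.09, 7.49 and 7.72 and nulliparous arrays 7.25, 7.44, 7.26, 7.88 and 7.92. Replicate 2 of lactation had the highest of all values, and the other lactating arrays lay within or just above the pubertal range. The rise in lactation was 0.47 ± 0.14 (adjusted p = 0.0147) and the fall in parous against lactating glands -0.70 ± 0.17 (adjusted p = 0.00258). Without lactation replicate 2 the first was 0.21 (adjusted p = 0.250).

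Wnt2b, a ligand close in sequence to Wnt2, read 6.38 (lowest), 6.87 (median) and 7.16 (highest) at day 21. It read 7.61, 7.50, 7.74, 6.81 and 6.96 at day 42 and 7.25, 7.42, 7.16, 6.90 and 6.86 at day 63. In lactation it read 6.71, 6.54 and 6.40, in parous glands 6.74, 7.09, 6.87, 6.72 and 6.17 and in nulliparous glands 7.60, 7.64, 7.02, 6.76 and 7.01. The batch 1 arrays were above the batch 2 arrays in each of the 3 youngest stages. It rose at day 42 by 0.51 ± 0.10 (adjusted p = 0.000391). Of all members it had the smallest p of parous against nulliparous glands, with a difference of -0.49 ± 0.11 (adjusted p = 0.229), of -0.52 within batch 1 (n = 3 each) and of -0.44 within batch 3 (n = 2 each). As the same arrays picked Wnt2b from the 48 members, the shared sign of the batches is partly built in. Without nulliparous replicate 3 the difference was -0.59 (adjusted p = 0.0190). Of the 10 fits that left out 1 array of these stages, only that fit called a member.

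Wnt7b, a ligand of the epithelium in mouse, read 5.71 (lowest), 6.22 (median) and 7.24 (highest) at day 21. It read 7.07, 7.01, 6.95, 6.26 and 6.52 at day 42 and 6.77, 6.60, 6.70, 6.41 and 6.48 at day 63. It read 6.32, 6.54 and 6.21 in lactation and 6.46, 6.59, 6.08, 5.13 and 5.76 in parous glands. Nulliparous arrays read 6.44, 6.37, 6.73, 5.72 and 5.72. Pre-pubertal replicate 8 held the highest value of all 33 arrays. Wnt7b rose at day 42 by 0.50 ± 0.14 (adjusted p = 0.00828). Wnt9a, a ligand of joint development, rose as well by 0.37 ± 0.10 (adjusted p = 0.00892), lost without peri-pubertal replicate 4 (0.31, adjusted p = 0.0524), with batch 1 arrays above batch 2 arrays at day 63.

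Wnt10a, a ligand of skin and tooth development, read 6.25 (lowest), 6.47 (median) and 6.74 (highest) at day 21, 6.54, 6.94, 6.50, 6.76 and 6.32 at day 42 and 6.54, 6.55, 6.57, 6.21 and 6.44 at day 63. It read 6.30, 6.22 and 6.39 in lactation, 6.81, 6.66, 6.61, 6.91 and 7.15 in parous and 6.45, 6.77, 6.56, 6.67 and 6.52 in nulliparous glands. All parous arrays were above all lactating arrays, with a rise of 0.43 ± 0.16 (adjusted p = 0.0450), lost without any 1 of the 3 lactating arrays (adjusted p = 0.0516 to 0.122) or without parous replicate 1 or 5. Wnt3a, an activator of β-catenin signalling, fell in lactation (-0.35 ± 0.12, adjusted p = 0.0312) with overlap of the arrays, and the call was lost without pubertal replicate 4 or 5 or lactation replicate 2 or 3 (adjusted p = 0.0622 to 0.196).

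Wnt6, Wnt10b and Wnt11, ligands of epithelial and mesenchymal development in mouse, were called in 0 of the 6 comparisons and did not pass the F test. Wnt6 read 7.34 (lowest), 7.47 (median) and 7.80 (highest) at day 21, 7.59, 7.67, 7.78, 7.38 and 7.40 at day 42 and 7.53, 7.54, 7.49, 7.54 and 7.26 at day 63. It read 7.43, 7.37 and 7.67 in lactation, 7.50, 7.50, 7.35, 7.48 and 7.57 in parous and 7.48, 7.65, 7.38, 7.66 and 7.26 in nulliparous glands. Its 6 stages overlapped. Wnt10b read 5.50 (lowest), 5.93 (median) and 6.36 (highest) at day 21, 5.93, 6.07, 6.09, 6.01 and 5.72 at day 42 and 6.21, 6.11, 6.08, 6.03 and 5.87 at day 63. It read 5.97, 6.02 and 5.80 in lactation, 6.11, 6.31, 5.98, 5.97 and 6.30 in parous and 6.05, 6.34, 6.05, 6.22 and 6.40 in nulliparous glands. Its values were low and overlapped too. Wnt11 read 6.49 (lowest), 7.18 (median) and 7.58 (highest) at day 21, 7.11, 7.09, 7.16, 6.64 and 7.04 at day 42 and 7.05, 7.01, 6.91, 6.91 and 6.80 at day 63. It read 6.55, 6.59 and 6.99 in lactation, 7.10, 7.02, 7.25, 7.37 and 7.16 in parous and 7.58, 7.48, 7.08, 7.63 and 7.13 in nulliparous glands. All parous arrays lay above all lactating ones, but with the batch terms the difference was 0.04 ± 0.18 (adjusted p = 0.901). The remaining ligands, Wnt1, Wnt3, Wnt7a, Wnt8a, Wnt8b, Wnt9b and Wnt16, had stage means within 0.27 of each other and were called in no comparison or F test.

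**Figure D3:**
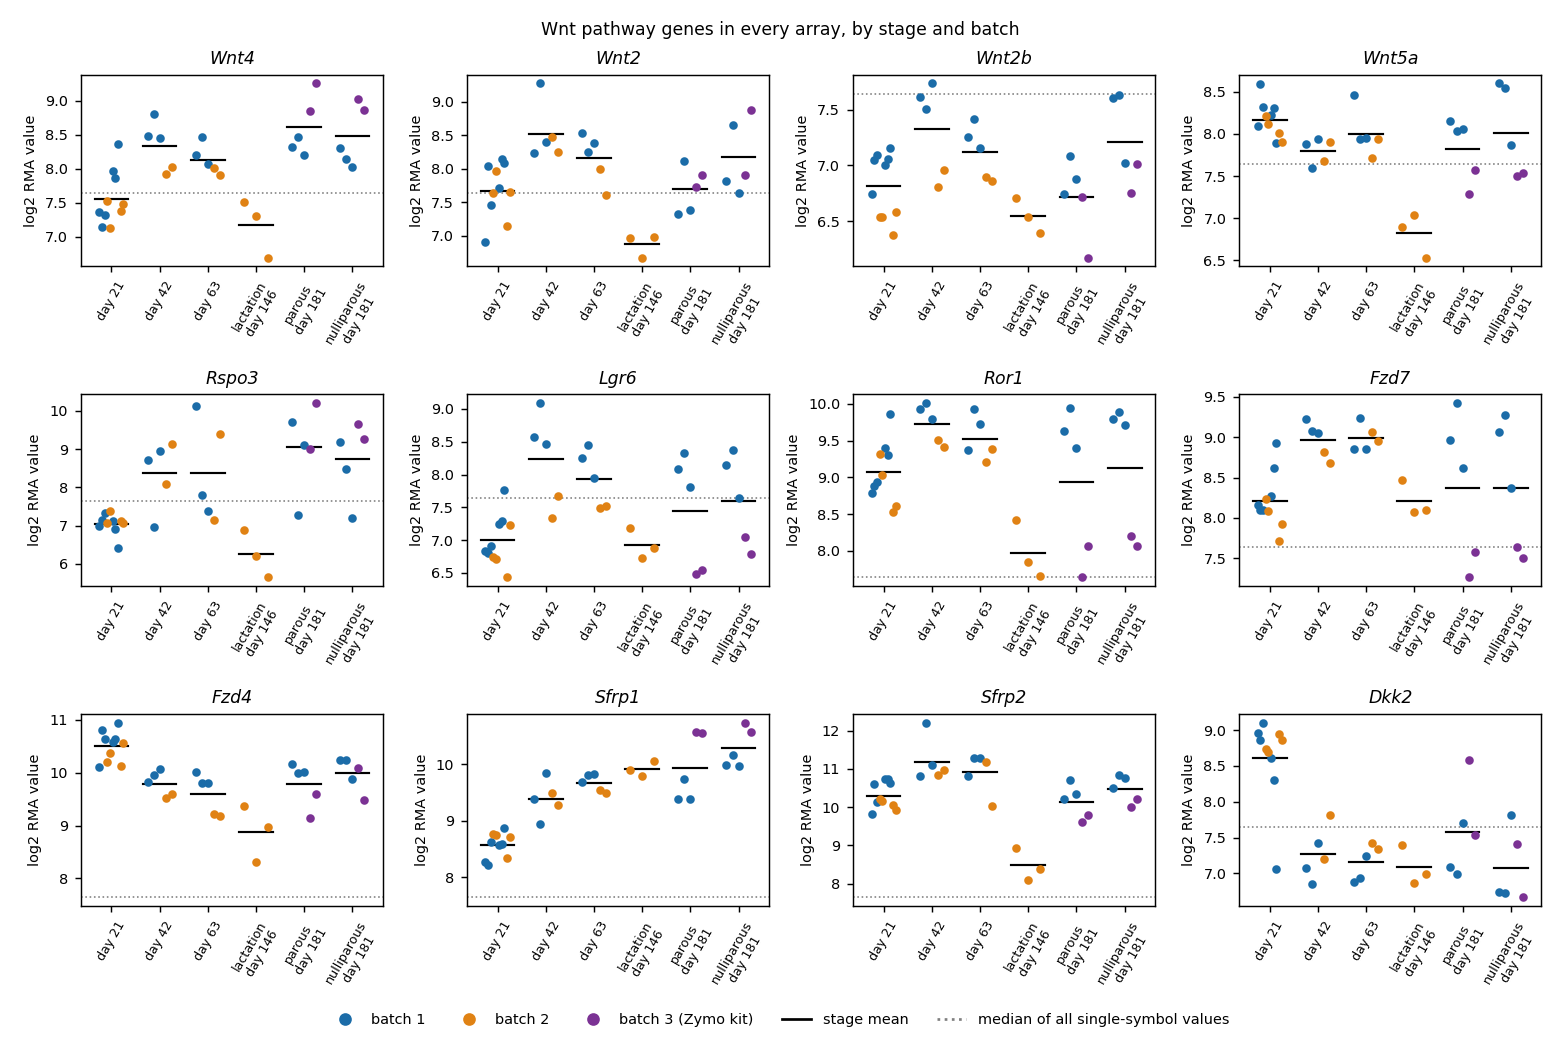
Log2 RMA values of 12 members in every array, by stage in order of age, coloured by batch, with stage means as black lines and the median of all single-symbol values, 7.645, dotted where it is in range. Wnt4, Rspo3, Sfrp2 and Ror1 rose at day 42 and have their lowest stage mean in lactation, Sfrp1 is higher at every later stage than at day 21, and within the parous and nulliparous stages batch 3 arrays lie below batch 1 arrays for Ror1, Lgr6 and Fzd7.

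Of the R-spondins, Rspo3, which is made by stromal cells of several mouse tissues, varied widely between arrays. It read 6.40 (lowest), 7.10 (median) and 7.38 (highest) at day 21, 8.71, 6.97, 8.96, 8.09 and 9.15 at day 42 and 10.13, 7.80, 7.39, 7.14 and 9.40 at day 63. It read 6.90, 6.21 and 5.65 in lactation, 9.71, 7.27, 9.11, 8.99 and 10.21 in parous and 9.18, 8.47, 7.21, 9.65 and 9.25 in nulliparous glands. Lactating arrays lay below every pubertal, parous and nulliparous array, whereas 1 of 5 arrays at day 42 lay within the day 21 range. Rspo3 rose at day 42 (1.32 ± 0.43, adjusted p = 0.0260, 2.50-fold), fell in lactation against pubertal glands (-2.21 ± 0.61, adjusted p = 0.00679, 4.62-fold lower) and rose in parous against lactating glands (2.54 ± 0.70, adjusted p = 0.00912, 5.83-fold). The day 42 call was lost without peri-pubertal replicate 1, 3 or 5, with adjusted p = 0.0726, 0.0895 and 0.0942.

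Rspo1, an R-spondin of luminal cells in mouse, read 7.55 (lowest), 7.68 (median) and 8.04 (highest) at day 21, 7.65, 8.55, 7.61, 8.11 and 7.93 at day 42 and 7.88, 8.15, 7.97, 8.20 and 8.21 at day 63. It read 8.44, 8.06 and 7.60 in lactation, 7.74, 8.07, 7.96, 8.35 and 8.28 in parous and 8.08, 8.39, 8.56, 8.70 and 9.01 in nulliparous glands. It passed the F test (adjusted p = 0.00357) but was called in 0 comparisons, and batch 3 arrays were the higher ones in both adult stages. Rspo4 rose at day 42 by 0.30 ± 0.10 (adjusted p = 0.0366), lost in 8 of the 15 fits that left out 1 array (adjusted p = 0.0595 to 0.137), and lay lower at day 63 in all 5 arrays, with a difference of -0.37 ± 0.12 (adjusted p = 0.160) that was not called. Rspo2 was not called.

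Among the Lgr receptors, Lgr6, a stem cell marker of mouse skin, had day 21 values of 6.43 (lowest), 6.87 (median) and 7.76 (highest). It read 8.58, 9.09, 8.46, 7.34 and 7.68 at day 42 and 8.25, 8.45, 7.95, 7.49 and 7.51 at day 63, with batch 1 above batch 2. Lactating arrays read 7.18, 6.73 and 6.88, parous arrays 8.09, 8.32, 7.81, 6.49 and 6.55 and nulliparous arrays 8.14, 8.38, 7.64, 7.05 and 6.78. In both adult stages batch 3 arrays were below batch 1 arrays. Lgr6 rose at day 42 by 1.23 ± 0.17 (adjusted p = 5.20e-06), a 2.35-fold rise, and the difference was 1.57 within batch 1 and 0.73 within batch 2. With the luminal list as a covariate it was 0.79 (adjusted p = 0.0898).

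Lgr5, a marker of a basal cell subset in mouse, read 6.80 (lowest), 7.60 (median) and 7.93 (highest) at day 21, 7.67, 7.33, 7.16, 7.86 and 6.82 at day 42 and 7.36, 7.03, 6.75, 6.77 and 7.01 at day 63. It read 6.01, 6.23 and 5.85 in lactation, 7.21, 7.11, 6.99, 6.20 and 6.34 in parous and 8.57, 7.30, 7.01, 7.33 and 6.43 in nulliparous glands. Lactating arrays lay below all pubertal arrays, while 1 of the 2 batch 3 parous arrays fell within their range. It fell in lactation (-0.88 ± 0.29, adjusted p = 0.0206) and rose in parous against lactating glands by 0.93 ± 0.33 (adjusted p = 0.0430). The fall was lost without lactation replicate 3 (-0.79, adjusted p = 0.0752), and the rise without any 1 lactating array (adjusted p = 0.0526 to 0.111) or without parous replicate 1, 2, 3 or 5.

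Lgr4, the broadly expressed receptor of the group, read 9.40 (lowest), 10.05 (median) and 10.44 (highest) at day 21, 10.30, 10.16, 10.33, 10.20 and 9.92 at day 42 and 10.31, 10.79, 10.78, 10.55 and 10.31 at day 63. It read 10.93, 10.69 and 10.95 in lactation, 10.77, 10.91, 10.25, 8.25 and 8.35 in parous and 10.74, 10.76, 10.55, 8.55 and 8.28 in nulliparous glands. The 4 batch 3 arrays stood well below all others. With batch in the fit, stages differed in the F test (adjusted p = 5.13e-05), yet 0 of the 6 comparisons called it. Lactation minus pubertal was 0.36 ± 0.18 (adjusted p = 0.144).

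Of the co-receptors, Lrp6 read 10.79 (lowest), 10.94 (median) and 11.38 (highest) at day 21, 11.42, 10.83, 11.07, 11.44 and 11.21 at day 42 and 11.24, 11.45, 11.45, 11.43 and 11.44 at day 63. It read 11.68, 11.69 and 11.38 in lactation, 11.26, 11.18, 11.08, 9.49 and 9.34 in parous and 11.54, 11.30, 11.03, 9.65 and 9.45 in nulliparous glands. It passed the F test (adjusted p = 0.000646) with 0 comparisons called. Lrp5 read 9.94 (lowest), 10.59 (median) and 11.24 (highest) at day 21, 11.05, 10.71, 10.91, 10.47 and 10.19 at day 42 and 10.80, 10.92, 10.77, 10.43 and 10.41 at day 63. It read 10.58, 10.16 and 10.53 in lactation, 11.05, 11.15, 10.68, 8.47 and 8.68 in parous and 11.03, 10.99, 10.59, 8.55 and 8.68 in nulliparous glands. Outside batch 3 the stages overlapped, and the F test gave an adjusted p of 0.859.

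The Ror receptors, tyrosine kinase-like receptors of Wnt5a, rose at day 42 and fell in lactation. Ror1 read 8.53 (lowest), 8.99 (median) and 9.86 (highest) at day 21, 9.93, 10.01, 9.79, 9.51 and 9.41 at day 42 and 9.37, 9.94, 9.73, 9.20 and 9.39 at day 63. It read 8.42, 7.85 and 7.66 in lactation, 9.63, 9.95, 9.40, 7.64 and 8.07 in parous and 9.79, 9.89, 9.72, 8.21 and 8.07 in nulliparous glands. The lactating arrays were below the pubertal ones without overlap, and batch 3 adult arrays reached the lactating range. Ror1 rose at day 42 by 0.66 ± 0.15 (adjusted p = 0.00174), fell in lactation (-1.33 ± 0.21, adjusted p = 2.31e-05) and rose in parous against lactating glands by 1.29 ± 0.25 (adjusted p = 0.000330). Ror2 rose by 0.54 ± 0.10 (adjusted p = 0.000317) and fell (-0.43 ± 0.15, adjusted p = 0.0268) in the same first 2 comparisons. Its lactation call was lost without either of pubertal replicates 4 and 5 or of lactation replicates 1 and 3 (adjusted p = 0.0609 to 0.142), and with the fibroblast list as a covariate the difference was 0.070 (adjusted p = 0.926).

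Frizzled receptors divided by direction at day 42. Fzd7, a receptor found on basal mammary cells in mouse, read 7.71 (lowest), 8.13 (median) and 8.93 (highest) at day 21, 9.22, 9.07, 9.05, 8.82 and 8.67 at day 42 and 8.86, 9.23, 8.85, 9.06 and 8.95 at day 63. It read 8.47, 8.07 and 8.10 in lactation, 8.97, 9.42, 8.62, 7.26 and 7.57 in parous and 9.07, 9.27, 8.37, 7.64 and 7.51 in nulliparous glands. Lactating arrays were below the pubertal arrays, and batch 3 arrays were the lowest of their stages. Fzd7 rose at day 42 by 0.75 ± 0.15 (adjusted p = 0.000411) and fell in lactation (-0.61 ± 0.21, adjusted p = 0.0278), a call lost without pubertal replicate 4 or 5 or any 1 of lactation replicates 2 and 3 (adjusted p = 0.0702 to 0.107). With the fibroblast list as a covariate that difference was 0.50 (adjusted p = 0.513).

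Fzd1, close in sequence to Fzd2 and Fzd7, read 6.95 (lowest), 7.39 (median) and 8.02 (highest) at day 21, 8.07, 8.37, 8.85, 7.64 and 8.19 at day 42 and 8.29, 8.26, 8.01, 7.18 and 7.33 at day 63. It read 6.79, 7.16 and 7.02 in lactation, 7.81, 8.25, 7.94, 7.26 and 7.62 in parous and 8.11, 8.63, 7.90, 7.60 and 7.92 in nulliparous glands. The lactating arrays lay below all pubertal, parous and nulliparous arrays. Fzd1 rose at day 42 by 0.80 ± 0.13 (adjusted p = 6.24e-05), and its lower lactation values were not called (-0.42 ± 0.19, adjusted p = 0.0946). Fzd2 rose at day 42 by 0.61 ± 0.13 (adjusted p = 0.00103) and fell in lactation (-0.56 ± 0.18, adjusted p = 0.0236), which was lost without pubertal replicate 4 (-0.44, adjusted p = 0.101) or lactation replicate 2 (-0.44, adjusted p = 0.136). With the fibroblast list as a covariate it was 0.75 (adjusted p = 0.160).

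Fzd4, a receptor of blood vessel development, went the other way. It read 10.12 (lowest), 10.58 (median) and 10.95 (highest) at day 21, 9.83, 9.95, 10.08, 9.52 and 9.60 at day 42 and 10.02, 9.81, 9.80, 9.21 and 9.18 at day 63. It read 9.38, 8.30 and 8.96 in lactation, 10.16, 9.99, 10.01, 9.15 and 9.60 in parous and 10.24, 10.24, 9.89, 10.09 and 9.49 in nulliparous glands. All day 42 arrays lay below all day 21 arrays. It fell at day 42 (-0.70 ± 0.14, adjusted p = 0.000411), where 5 of 6 endothelial list genes also fell and 10 of 10 adipocyte genes did, whose part in the fall was not tested. It rose in parous against lactating glands by 0.68 ± 0.23 (adjusted p = 0.0297), lost without lactation replicate 2 (0.39, adjusted p = 0.225) or without parous replicate 1 or 3. Fzd6 passed the F test (adjusted p = 0.0496) and was called in 0 comparisons, and Fzd5, Fzd8, Fzd9 and Fzd10 were called in neither.

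Among the secreted inhibitors, Sfrp1 had the smallest p of all members in the F test (adjusted p = 5.19e-10). It read 8.22 (lowest), 8.60 (median) and 8.86 (highest) at day 21, 9.37, 8.94, 9.84, 9.49 and 9.28 at day 42 and 9.69, 9.81, 9.82, 9.54 and 9.48 at day 63. It read 9.89, 9.78 and 10.05 in lactation, 9.39, 9.73, 9.38, 10.57 and 10.55 in parous and 9.99, 10.16, 9.96, 10.73 and 10.56 in nulliparous glands. Every array of a later stage exceeded every day 21 array, and batch 3 arrays were the highest of both adult stages. Sfrp1 rose at day 42 by 0.82 ± 0.12 (adjusted p = 1.03e-05). Sfrp2, Sfrp4 and Sfrp5 fell in lactation, while for Sfrp1 lactation minus pubertal was 0.24 ± 0.17 (adjusted p = 0.307) and not called, and the contrast between these genes was not tested.

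Sfrp2, an inhibitor made by fibroblasts in many tissues, read 9.83 (lowest), 10.19 (median) and 10.73 (highest) at day 21, 10.81, 12.20, 11.11, 10.84 and 10.96 at day 42 and 10.80, 11.29, 11.28, 11.19 and 10.02 at day 63. It read 8.94, 8.10 and 8.38 in lactation, 10.20, 10.70, 10.33, 9.61 and 9.79 in parous and 10.49, 10.83, 10.77, 10.01 and 10.21 in nulliparous glands. Day 42 arrays were above all day 21 arrays, and lactating arrays below all arrays of every other stage. Sfrp2 rose at day 42 by 0.89 ± 0.19 (adjusted p = 0.000893), fell in lactation (-2.19 ± 0.27, adjusted p = 3.58e-07), a 4.55-fold fall, and rose in parous against lactating glands by 1.49 ± 0.31 (adjusted p = 0.000731). With the fibroblast list as a covariate the lactation difference was -0.54 (adjusted p = 0.565).

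Sfrp5, an adipose tissue inhibitor of Wnt5a in mouse, had day 21 values of 7.64 (lowest), 8.004 (median) and 8.37 (highest). It read 7.57, 7.38, 7.67, 7.81 and 7.43 at day 42 and 7.63, 7.17, 7.10, 7.58 and 7.75 at day 63. Lactating arrays read 6.55, 6.77 and 7.10, parous arrays 7.59, 7.58, 7.82, 7.57 and 8.16 and nulliparous arrays 7.51, 7.56, 7.27, 7.91 and 8.02. Lactating arrays were below every pubertal, parous and nulliparous array, although the nearest pubertal array also rounds to 7.10. Sfrp5 fell at day 42 (-0.40 ± 0.13, adjusted p = 0.0232), fell in lactation (-0.64 ± 0.18, adjusted p = 0.00803) and rose in parous against lactating glands by 0.80 ± 0.21 (adjusted p = 0.00588). The day 42 call was lost without peri-pubertal replicate 2 or 5, and the lactation call without lactation replicate 1 (adjusted p = 0.0562). Sfrp4, another Wnt-binding inhibitor, fell in lactation (-1.42 ± 0.42, adjusted p = 0.0103) with no overlap of arrays, and with the fibroblast list as a covariate the difference was 1.88 (adjusted p = 0.0793).

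Dkk2, a secreted ligand of Lrp5 and Lrp6, read 7.07 (lowest), 8.80 (median) and 9.10 (highest) at day 21, 7.08, 6.85, 7.42, 7.21 and 7.82 at day 42 and 6.88, 6.93, 7.24, 7.42 and 7.34 at day 63. It read 7.40, 6.87 and 6.99 in lactation, 7.09, 6.99, 7.70, 8.58 and 7.54 in parous and 6.74, 6.73, 7.81, 7.42 and 6.67 in nulliparous glands. The lowest day 21 value was replicate 8 and the other 9 arrays read 8.30 or more, above all day 42 arrays. That array had the lowest B cell list mean of its stage, 6.68 (the others 7.94 to 9.80), and the lowest T cell mean, 7.01. Parous replicate 4, with the highest Dkk2 among adult arrays at 8.58, had a B cell mean of 9.71. Nulliparous replicate 3, with the highest adult B cell mean at 9.95, read 7.81 for Dkk2. Parous replicates 3 and 1, with B cell means of 9.56 and 8.45, read 7.70 and 7.09. Dkk2 fell at day 42 (-1.34 ± 0.25, adjusted p = 0.000208), 2.53-fold lower. With the B cell list as a covariate the difference was -0.69 (adjusted p = 0.00644), and with the luminal list it was -0.49 (adjusted p = 0.650). Dkk3, a divergent Dkk that does not block Lrp6, rose at day 42 by 0.42 ± 0.14 (adjusted p = 0.0263) and fell in lactation (-0.65 ± 0.19, adjusted p = 0.0122), calls lost without peri-pubertal replicate 1 (0.30, adjusted p = 0.149) or 4 and without lactation replicate 2 (-0.45, adjusted p = 0.122). Dkk1, Dkk4 and Wif1 were called in no comparison or F test.

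Day 42 against day 21 and lactation against pubertal share no array. Both come from the same fit, with shared batch terms and variances, so they are not fully independent. Among the members 9 both rose at day 42 and fell in lactation: Wnt2, Wnt4, Rspo3, Ror1, Ror2, Fzd2, Fzd7, Sfrp2 and Dkk3. They are 56.2% of the 16 that rose and 64.3% of the 14 that fell. Over all genes, 483 did both, 24.2% of those that rose and 20.8% of those that fell. To show what the promoters of such genes look like, the 250 bases before the start of Wnt4, Rspo3, Sfrp2 and Fzd7, one each of ligand, R-spondin, inhibitor and receptor, are given 5′ to 3′ from RefSeq (build GRCr8). They lie at chr5:154797200-154797449, chr1:30112279-30112528, chr2:171387286-171387535 and chr9:68425288-68425537, all on the plus strand. Capitals mark the GC box GGGCGG and the TCF/LEF core CTTTGA, the letters bound by the β-catenin partners, on either strand.
Wnt4 promoter: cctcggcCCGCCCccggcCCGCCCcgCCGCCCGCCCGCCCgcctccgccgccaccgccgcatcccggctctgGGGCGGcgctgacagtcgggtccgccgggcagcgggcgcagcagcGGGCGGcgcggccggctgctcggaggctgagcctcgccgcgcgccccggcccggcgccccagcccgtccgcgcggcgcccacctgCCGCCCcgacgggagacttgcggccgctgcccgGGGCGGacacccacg
Rspo3 promoter: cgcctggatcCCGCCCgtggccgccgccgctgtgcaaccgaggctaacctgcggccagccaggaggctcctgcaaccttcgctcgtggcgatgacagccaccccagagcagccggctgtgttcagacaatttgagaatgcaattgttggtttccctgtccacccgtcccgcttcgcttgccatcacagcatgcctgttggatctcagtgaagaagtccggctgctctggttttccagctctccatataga
Sfrp2 promoter: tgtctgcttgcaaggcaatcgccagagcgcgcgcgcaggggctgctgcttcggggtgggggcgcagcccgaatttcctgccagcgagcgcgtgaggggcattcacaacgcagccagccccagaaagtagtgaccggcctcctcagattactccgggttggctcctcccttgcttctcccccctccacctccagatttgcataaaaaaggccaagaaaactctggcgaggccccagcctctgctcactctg
Fzd7 promoter: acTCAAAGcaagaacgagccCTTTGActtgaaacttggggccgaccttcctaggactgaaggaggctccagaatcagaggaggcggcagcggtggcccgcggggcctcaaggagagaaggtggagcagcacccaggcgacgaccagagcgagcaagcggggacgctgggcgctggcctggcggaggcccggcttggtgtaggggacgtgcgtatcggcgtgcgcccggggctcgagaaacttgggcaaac

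RefSeq promoters were at hand for 33 of the 48 genes, and windows of the same 250 bases for 27457 genes gave the comparison. The TCF/LEF core occurred in 3 of 33 (Dkk1, Fzd7 and Wnt8a), or 9.09%, against 13.8% of all promoters. The window of Fzd7 holds 2 matches and those of Wnt4, Rspo3 and Sfrp2 hold 0. The GC box occurred in 17 of 33, 51.5%, against 32.4% of all, and Wnt4 alone has 9 matches, of which some overlap. The TATA box letters TATAAA were in 1 of 33, Dkk1, against 13.1% of all. Median GC content was 65.6% in the members and 52.0% in all promoters, and 86.4% in Wnt4. These are matches of letters and not binding sites.

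The rest of the pathway was read from 4 lists: 26 intracellular components, 16 target or feedback genes, 21 other modulators and 10 hormone-related genes. At day 42, 5 intracellular genes rose and 2 fell. Tle2, a co-repressor, differed by 0.55 ± 0.10 (adjusted p = 0.000190) and Tcf7l2, a TCF factor, by 0.62 ± 0.13 (adjusted p = 0.000898). The 2 that fell, Tcf7 (-2.16 ± 0.48, adjusted p = 0.00157) and Lef1 (-2.56 ± 0.62, adjusted p = 0.00309), are TCF factors also made by T cells, whose list fell in 8 of 9 genes. Of the targets, 5 rose and 2 fell, the same Tcf7 and Lef1. Tnfrsf19 rose by 1.31 ± 0.20 (adjusted p = 2.36e-05) and Nkd2, a feedback inhibitor, by 0.58 ± 0.09 (adjusted p = 3.72e-05), whereas Axin2, a general target, gave -0.18 ± 0.11 (adjusted p = 0.298).

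Other modulators rose in 11 of 21 cases and fell in 2 at day 42. Sdc1, a heparan sulfate proteoglycan of epithelium, rose by 1.18 ± 0.15 (adjusted p = 1.59e-06) and Cthrc1, a Wnt-binding matrix protein, by 1.44 ± 0.20 (adjusted p = 6.13e-06). Kremen1, a Dkk receptor, rose by 0.69 ± 0.11 (adjusted p = 2.44e-05). Of the hormone genes 6 rose and 1 fell. Pgr, the progesterone receptor, rose by 3.94 ± 0.52 (adjusted p = 3.12e-06) and Prlr, the prolactin receptor, by 2.30 ± 0.22 (adjusted p = 1.64e-08), while Tnfsf11, the RANK ligand induced by progesterone in mouse, fell (-1.04 ± 0.25, adjusted p = 0.00267).

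In lactation against pubertal glands, targets fell in 6 of 16 cases and rose in 2. Axin2 fell (-0.98 ± 0.16, adjusted p = 3.00e-05), as did the Wnt inhibitor and target Apcdd1 (-1.83 ± 0.26, adjusted p = 3.30e-06) and Nkd1 (-0.70 ± 0.11, adjusted p = 1.48e-05). Intracellular genes were split, 6 up and 6 down, and Ctnnb1, which encodes β-catenin, rose by 0.69 ± 0.07 (adjusted p = 2.70e-08). Of the other modulators 1 rose and 10 fell, among them the glypican Gpc3 (-2.53 ± 0.24, adjusted p = 3.58e-09) and the Wnt7 co-factor Reck (-1.68 ± 0.20, adjusted p = 2.82e-07). Of the hormone genes 3 fell, Foxa1, Id4 and Prlr, and 0 rose. Pgr gave -1.80 ± 0.74 (adjusted p = 0.0674), Tnfsf11 -0.34 ± 0.35 (adjusted p = 0.506) and Lef1 -1.33 ± 0.88 (adjusted p = 0.277), all not called.

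In parous against lactating glands, 7 of 16 targets rose and 0 fell by limma, Axin2 by 1.13 ± 0.19 (adjusted p = 5.46e-05), Nkd1 by 0.98 ± 0.13 (adjusted p = 1.93e-06) and Ccnd1, a cyclin gene, by 1.22 ± 0.21 (adjusted p = 0.000121). Intracellular genes gave 7 up and 5 down, and Ctnnb1 fell (-0.87 ± 0.08, adjusted p = 1.32e-08). Other modulators gave 6 up and 3 down, and hormone genes 3 up, with Areg, an EGF receptor ligand, at 2.44 ± 0.68 (adjusted p = 0.00993). In nulliparous against pubertal glands, 2 intracellular genes rose and 2 fell, Nkd1 rose (0.45 ± 0.10, adjusted p = 0.0118), and Cthrc1 (-1.30 ± 0.26, adjusted p = 0.00594) and Gpc3 (-0.82 ± 0.21, adjusted p = 0.0352) fell. Bcl9, a β-catenin co-factor, was the only gene of these 4 lists called in day 63 against day 42 glands (-0.34 ± 0.08, adjusted p = 0.0474), and parous against nulliparous glands gave 0 calls over the same lists in the limma fit.

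Batch terms were large for several members. Batch 3, with the Zymo kit, was lower than batch 1 in 17 members and higher in 6, while 60.4% of all genes were called for the same term. The fitted batch 3 term was -2.32 for Lrp5, -2.31 for Lgr4, -1.75 for Lrp6, -1.73 for Ror1 and -1.46 for Fzd7. It was 0.84 for Sfrp1 and 0.75 for Wnt4. Kit, batch 3 and the use of the kit for fattier glands cannot be told apart. Adipocyte list means of the adult arrays ran from 9.88 to 10.77 in batch 3 and from 10.30 to 11.02 in batch 1. The median absolute batch 3 term was 0.41 over the members and 0.43 over all genes. Batch 2 was lower than batch 1 in 13 members and higher in 5, where 42.2% of all genes were called. In the plot of batch 3 terms, Lrp5, Lgr4, Lrp6, Ror1, Fzd7, Lgr6 and Dkk3 have the lowest ones.

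**Figure D4:**
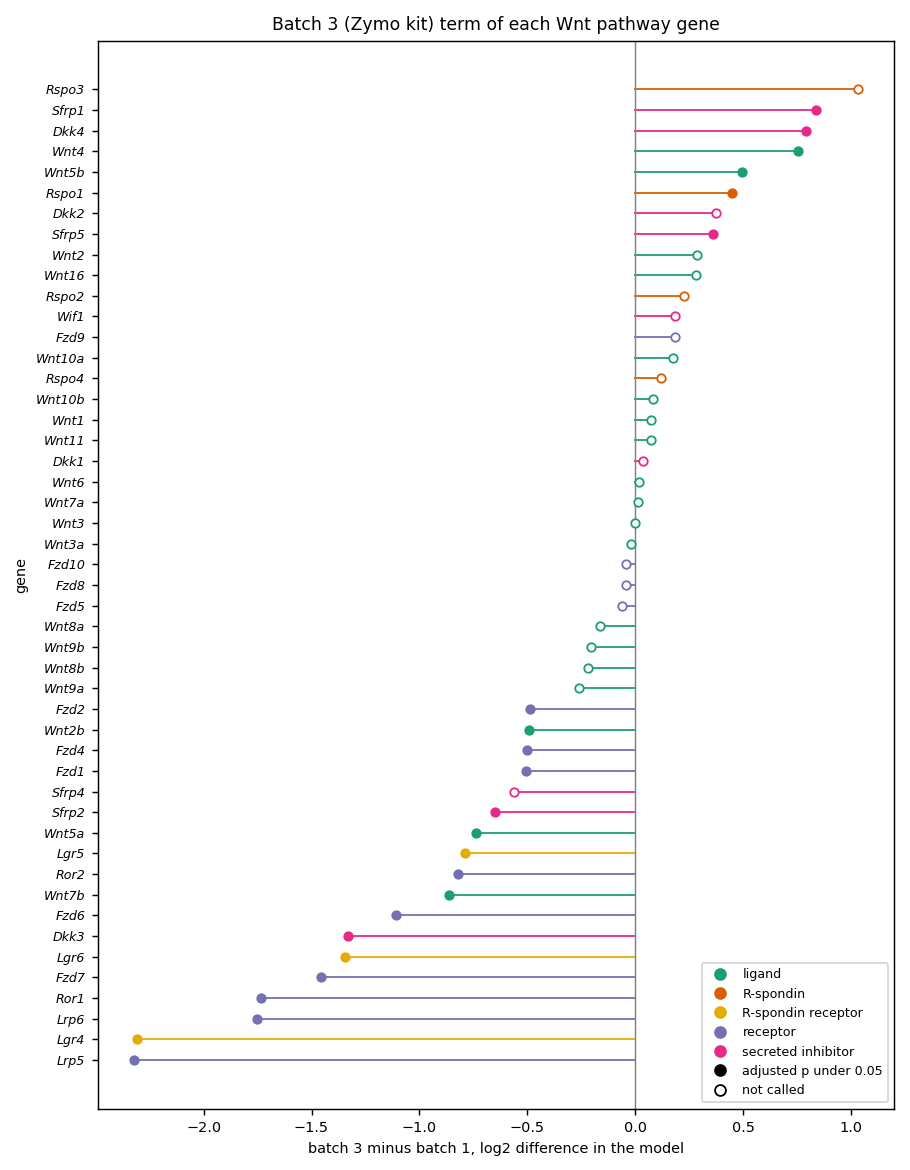
Batch 3 minus batch 1 in the fit (log2 units) for each of the 48 genes, coloured by role. Filled points have an adjusted p under 0.05: 17 lie below 0, from Lrp5 at -2.32 upward, and 6 above it, led by Sfrp1 at 0.84.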

How the data were processed

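Gland RNA was hybridised to Affymetrix whole-transcript arrays, 1 array per sample. The deposited log2 values were made by the authors with Affymetrix Expression Console and RMA, per the submitters' processing notes, with versions not given in the sources used here. RMA corrects background, equalises arrays and summarises probes, so small differences of dim probe sets are compressed. How many arrays a stage has sets the precision, since arrays have no read depth.

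Of 36685 probe sets, 18511 had 1 gene symbol in the platform annotation, 575 had several and 17599 had none listed. For a gene with several probe sets, the one with the highest mean was kept (18166 genes). The 48 members matched RefSeq by gene identifier. The members and gene lists were chosen with earlier results of these data known, and the lists were written from general knowledge.

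A linear model with 6 stage and 3 batch terms was fitted over all 33 arrays in limma 3.58.1 (R 4.3.3), with 25 residual degrees of freedom, moderated variances with an intensity trend, no filter on low values, and two-sided tests with Benjamini-Hochberg adjustment over 18166 genes. Differences include the batch terms and can depart from those of plain means. The 0.05 threshold applied to adjusted p. Nothing says that arrays of a stage came from separate litters, so p-values measure the spread between these arrays. No 2 arrays were identical. The method was tested on simulated data.

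Array values are printed for the 14 members of smallest F test p and a panel of Wnt4, Wnt5a, Wnt5b, Wnt6, Wnt2, Wnt7b, Wnt10a, Wnt10b, Wnt11, Rspo1, Lgr4, Lgr5, Lrp5 and Lrp6. Called members of at least 0.5 log2 units, up to 8 a direction, are named in each comparison. Of the other lists, up to 4 called genes each and Pgr, Tnfsf11, Axin2 and Lef1 were eligible. Rspo3 array values, and Rspo4, Wnt9a, Wnt3a, Fzd2, Ror2 and Dkk3, were added after their values were seen.

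Motifs were searched on both strands of the 250 bases before each RefSeq gene start. Figures were drawn with matplotlib 3.10.9. The alternatives were: no batch term, a random batch block, a filter on low values, 2 other normalizations, probe sets of a gene averaged, no trend, array weights, the compared stages only, single batches, no batch 3, list means as covariates, and each array left out.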

Additional observations from a re-analysis of the deposited data

Results flagged for a closer look

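Of 120 sets of arrays (a member with values given here, in a stage of 4 to 10 arrays), 6 had 1 array far from the others, where chance gives about 1 in 20. The count is thus no higher than chance gives. Peri-pubertal replicate 2 held 2 of them: Sfrp2 at 12.20 beside 10.81 to 11.11 in the other 4 arrays, and Wnt2 at 9.28 beside 8.24 to 8.47. Pre-pubertal replicate 8 read 7.07 for Dkk2 beside 8.30 to 9.10 in the others, and it also had the lowest B cell list mean and the highest luminal list mean of its stage. Pubertal replicate 5 read 7.26 for Wnt6 beside 7.49 to 7.54. Peri-pubertal replicate 4 read 6.64 for Wnt11 beside 7.04 to 7.16, and pubertal replicate 1 read 11.24 for Lrp6 beside 11.43 to 11.45. The causes were not tested.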

How the results depend on the processing

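The count of 20 members above the median stayed at 20 in both alternatives run for it. In 1 of them, the mean of probe sets, it could not change, since each of the 48 had 1 single-symbol probe set. For the calls that alternative could act only through the other genes, in the moderated variances and the adjustment. Of the 45 member calls in the comparisons, those retained with the same sign numbered 45 with the mean of probe sets and with no trend, 43 with a random batch block and without batch 3, 42 with the muscle list as a covariate, 41 with repeated quantile normalization, 39 with median centring, 38 with the B cell list as a covariate, 37 with array weights, 34 with the compared stages alone, 27 with no batch term, 21 with the luminal list and 20 with the fibroblast list. The filter on low values left 39 of the calls testable, and 39 passed. Day 42 against day 21, with 20 members called, gave 10 with no batch term, 6 within batch 1 and 4 within batch 2. Of all genes, 7.69%, 8.27% and 2.26% were called in these fits. The same comparison gave 0 with the luminal list as a covariate, whose mean nearly separates these stages, beside 1.52% of all genes. There Fzd4 (-0.69), Sfrp2 (0.80), Wnt2 (0.69) and Rspo3 (1.72) had differences near or above those reported while Ror1 (0.09) and Wnt7b (0.08) did not. Lactation against pubertal, with 15, gave 9 with array weights, 8 within batch 2 and 2 with the fibroblast list mean, which was added after seeing the data. Those fits called 22.9%, 9.88% and 6.69% of all genes. Parous against lactation, with 10, gave 5 with those stages alone, 17 with the B cell list and 5 with the fibroblast list. The shares of all genes were 5.1%, 22.8% and 15.6%. With the fibroblast list, only Rspo3 (3.25) and Wnt5a (0.94) of the reported 10 were still called. The other calls of that fit were new: Dkk2 (1.58), Lgr4 (-0.89) and Wnt2 (-1.22). Array weights gave 3 members in day 63 against day 42, 5 in nulliparous against pubertal and 1, Wnt2b, in parous against nulliparous, each with 0 in the reported fit. The same weights called 4.82%, 9.19% and 0.0991% of all genes in these comparisons. With the fibroblast list the lactation difference was positive for Fzd2 (0.75), Fzd7 (0.50), Ror2 (0.070), Sfrp4 (1.88) and Wnt2 (1.72). Of these, only Wnt2 was called (adjusted p = 0.00284). Leaving out 1 array at a time gave 26 to 28 members in the F test, 17 to 21 at day 42, 0 to 0 at day 63, 11 to 16 in lactation, 7 to 10 in parous against lactation, 0 to 1 in nulliparous against pubertal (Dkk3, -0.69, without nulliparous replicate 1) and 0 to 1 in parous against nulliparous. Causes of these changes were not tested. No paired analysis was possible because the replicate numbers were given in accession order and pair no arrays. With 3 lactating arrays and no shared batch with the parous stage, that contrast has no value within a batch, and without detection calls it is unknown how far a dim gene lies above background.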
